A study of Caenorhabditis elegans with 2 samples.

Results

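Signal for the GATA factor ELT-1 was ranked over 6301 genomic regions whose summit, the base of highest signal, lay in an exon of a protein-coding gene on an autosome and outside every promoter window. They were chosen by position alone, from 24023 autosomal regions and 30000 ranked regions in all, and their number depends on the promoter window used. A promoter window ran from 1000 bp upstream to 200 bp downstream of any transcript start of a protein-coding gene. The other autosomal regions had their summit in a promoter window (7450), in an intron (5334) or between genes (4938). The measurement was chromatin immunoprecipitation with sequencing (ChIP-seq) of ELT-1 fused to eGFP, made on whole Caenorhabditis elegans at the L2 larval stage. The strain was OP354, with the genotype unc-119(tm4063) III; wgIs354, where wgIs354 is the inserted transgene that carries the tagged elt-1, and the worms were of pooled sexes. There was 1 group with 2 replicates, and no untreated or mutant group, so the regions were compared with other regions and the replicates with each other. The labels and files do not say how many copies of elt-1 the transgene adds or which strain the control came from. They also do not say how deeply the libraries were read, and whole larvae mix all cell types.

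GATA factors bind DNA through zinc fingers that read a core of the letters GATA, with flanking bases that differ little between family members. ELT-1 acts early in the nematode embryo to specify the epidermis, and later in larvae it acts in epidermal seam cells, while related factors such as ELT-2 act in the intestine. Transcription factor sites are most often studied upstream of genes and in introns. An exon carries other sequence demands, since coding exons specify protein and untranslated regions (UTRs) carry signals for translation and for the fate of the messenger RNA.

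The authors' thresholded list, called peaks here, held 10 of the exonic regions, and the sequences at these summits are shown because they are the exonic sites with the strongest pooled signal. In 4 of the 10 the summit lay in coding sequence, and for these the coding exon within 50 bp of the summit is printed, 5′ to 3′ on the plus strand of ce11 (WBcel235). Capitals mark the motif WGATAR on either strand, where W is A or T and R is A or G, so that TTATCT is the same motif read from the other strand. The stretches are chrV:19429758-19429858 in srw-85, a gene of a chemoreceptor family that runs on the minus strand, chrIV:11882661-11882745 in cutl-27, which encodes a cuticlin-like protein, chrIV:11599837-11599937 in mig-38, and chrIV:10718223-10718323 in ncx-3, a sodium-calcium exchanger gene, the last 3 genes running on the plus strand.
srw-85: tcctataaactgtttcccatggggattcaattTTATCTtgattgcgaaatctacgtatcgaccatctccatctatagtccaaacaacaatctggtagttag
cutl-27: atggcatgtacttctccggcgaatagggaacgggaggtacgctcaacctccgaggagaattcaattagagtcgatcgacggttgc
mig-38: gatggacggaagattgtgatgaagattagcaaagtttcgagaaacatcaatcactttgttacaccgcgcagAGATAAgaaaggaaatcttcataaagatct
ncx-3: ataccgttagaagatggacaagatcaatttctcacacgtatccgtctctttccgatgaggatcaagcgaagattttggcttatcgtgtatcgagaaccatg
The motif was present at srw-85, centred 15.5 bp from the summit, and at mig-38, centred 23.5 bp from it. These letters were not found in the printed stretch at cutl-27 or at ncx-3.

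Outside coding sequence, 4 of the other 6 exonic peaks held the motif within 50 bp of the summit, in 5 places, each shown with 10 bases on either side. They were chosen for display after their values were seen. The places are chrIV:4438038-4438063 in the 3′ UTR of fbxb-74, an F-box family gene, chrII:5784786-5784811 and chrII:5784810-5784835 in a noncoding transcript of K05F1.6, chrV:4509673-4509698 in a 5′ UTR of unc-62, which encodes a homeodomain protein of the Meis and Homothorax family, and chrIII:6421170-6421195 in the 3′ UTR of C05D11.8.
fbxb-74: tatttttaagAGATAAgagatatata
K05F1.6, first place: tcatgggcgcTTATCTtttaaaaatt
K05F1.6, second place: ttcgcgatttTTATCTgctaaccttc
unc-62: acattgattcTTATCAtcatctgcct
C05D11.8: caacggggttTGATAGagacgcaggc
AGATAA or its reverse complement stood at srw-85, mig-38, fbxb-74 and both places in K05F1.6. The motif at unc-62 and at C05D11.8 was another of its spellings.

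Few exonic regions were peaks. The thresholded list held 1.17% of all 30000 ranked regions, and 254 of the 24023 autosomal regions, which is 1.06%. Of the exonic regions, 10 were in it, or 0.159% (95% Wilson interval 0.0862% to 0.292%), against 1.48% of promoter regions (1.23% to 1.78%), 0.881% of intronic regions (0.663% to 1.17%) and 1.76% of intergenic regions (1.43% to 2.17%). Without replicate 1, taking as many top ranks from the list of replicate 2, the exonic count was 29, or 0.478%. These intervals cover only the counting of regions. No test was made between the classes, since regions of the same libraries are not replicates and only 1 group exists.

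Most exonic regions carried signal near the middle of the list. Signal is the authors' value per region, on a scale of its own in each list, so it is also given as a fold, meaning its ratio to the list's median region. The median exonic signal was 7.72, or 0.989-fold, against 7.95 in promoters, 7.61 in introns and 7.75 between genes. At the 90th percentile the signal was 11.1 in exons, 12.6 in promoters, 11.3 in introns and 12.2 between genes. The distance was wider in the upper tail, where the 99th percentile was 15.3 in exons, 28.3 in promoters, 22.3 in introns and 31.5 between genes. Signal over 2-fold was seen at 51 exonic regions, or 0.809%, against 4.14% of the other autosomal regions. Below the median region of the whole list lay 3243 exonic regions, or 51.5%. In each replicate's own list, the median exonic region was at 0.985-fold in replicate 1 and 0.997-fold in replicate 2.

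Read by rank, the exonic share was low among the first 1000 regions and near its later level from rank 2001 on. Exonic summits made up 3.94% of the autosomal regions at the ranks that the peaks hold in the pooled list, called the top ranks (95% Wilson interval 2.15% to 7.09%), 7.63% in ranks 352 to 1000 and 22.2% in ranks 1001 to 2000 (19.4% to 25.3%). From rank 2001 on, the share stayed between 25.97% and 27.7%. For scale, exonic bases outside promoter windows were 22% of autosomal bases, so the exonic regions stood at 34.7 per 100 kb of such exon, against 27.5 other regions per 100 kb of the other autosomal bases. The replicates differed at the top of their lists. Replicate 1 had an exonic share of 3.60% (1.91% to 6.70%) in as many top ranks of its own list and 11.3% in ranks 352 to 1000. Replicate 2 had 11.2% (7.88% to 15.6%) and 20.7% in the same ranks. Both were below their own shares further down, which were 24.98% to 27.6% in replicate 1 and 25.1% to 26.5% in replicate 2 from rank 2001 on.

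**Figure D1:**
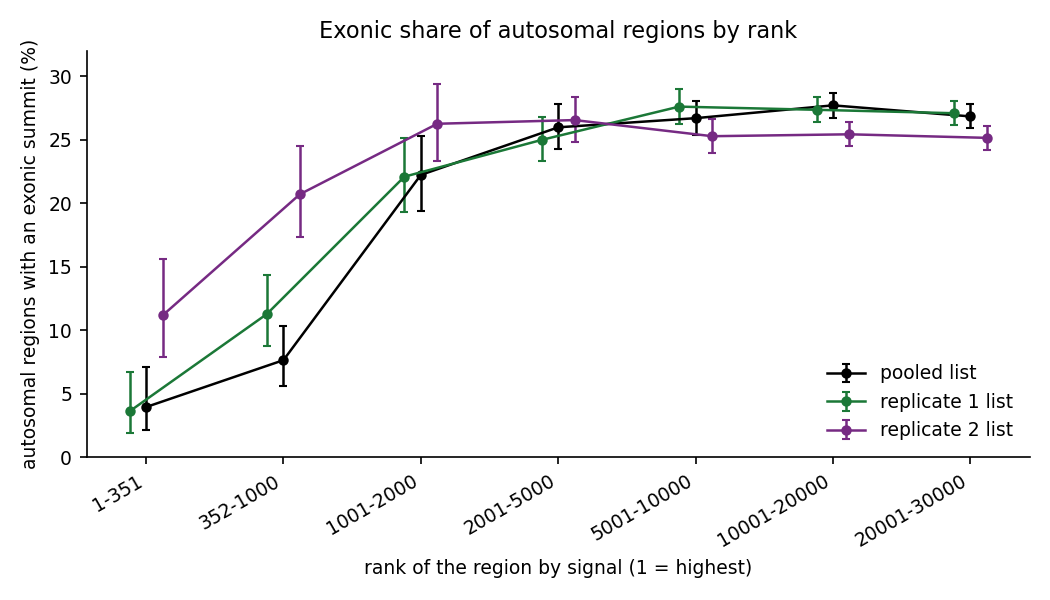
Share of autosomal regions whose summit is exonic (y axis, percent) by rank of signal (x axis), in the pooled list and in each replicate's own list, with 95% Wilson intervals as bars. The pooled share is 3.94% in the top ranks and 26.8% in ranks 20001 to 30000, and replicate 2 lies above replicate 1 in the first 1000 ranks.

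Among the 10 exonic peaks, 1 stood far above the rest. srw-85 held rank 4 of all 30000 regions, with a pooled signal of 132.7, which is 3.13 times that of the next exonic peak. Its signal was 85.5 in replicate 1 (18.4-fold over that list's median region, rank 3) and 46.8 in replicate 2 (9.05-fold, rank 10), a mean of 13.7 ± 6.6-fold (SD, n = 2). High signal was thus present in both replicates, and it was higher in replicate 1. The summit, chromosome V base 19429808, lay in exon 4 of 5 in both annotated transcripts, 1231 bp from the nearest transcript start, which is its own. Its region was 149 bp wide, the narrowest of the exonic regions, of which 6300 of 6301 were 264 bp wide.

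cyd-1 and cutl-27 came next. cyd-1, which encodes a D-type cyclin, held rank 99 with a pooled signal of 42.4, at 5.10-fold in replicate 1 and 2.31-fold in replicate 2 (mean 3.71 ± 2.0, SD, n = 2). Its summit lay in a 5′ UTR exon of 83 bp that only 1 of its 2 transcripts contains, and 31.4% of the region's bases were exonic. cutl-27 held rank 111 with a pooled signal of 40.4, and its replicates lay close together at 4.09-fold in replicate 1 and 4.40-fold in replicate 2 (mean 4.24 ± 0.22, SD, n = 2). The summit was in exon 14 of 16, and the nearest transcript start was not its own: it was that of let-653, a gene of the epidermal and tubular apical matrix, 2918 bp downstream.

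fbxb-74 and K05F1.6, both with the motif shown above, were higher in replicate 1. fbxb-74 had a pooled signal of 33.3 (rank 168), with 3.60-fold in replicate 1 and 2.72-fold in replicate 2 (mean 3.16 ± 0.62, SD, n = 2). K05F1.6 had a pooled signal of 30.4 (rank 219), with 4.32-fold in replicate 1 and 2.40-fold in replicate 2 (mean 3.36 ± 1.4, SD, n = 2). Its summit was exonic in 1 of 4 transcripts, a noncoding one, and lay in soft-masked sequence, meaning sequence marked as repetitive or of low complexity in the reference.

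mig-38 and ncx-3 were higher in replicate 2. mig-38, with its summit in an internal coding exon of 2120 bp, held rank 182 in the pooled list, rank 2662 in replicate 1 (1.68-fold) and rank 101 in replicate 2 (3.51-fold), a mean of 2.59 ± 1.3-fold (SD, n = 2). ncx-3, in exon 3 of 9, held rank 259 in the pooled list, rank 2867 in replicate 1 (1.65-fold) and rank 119 in replicate 2 (3.32-fold), a mean of 2.49 ± 1.2-fold (SD, n = 2). In both genes the signal was high in replicate 2 and under 2-fold in replicate 1. The nearest start to the mig-38 summit was that of rps-11, a ribosomal protein gene, 2754 bp downstream.

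unc-62, nhr-127 and C05D11.8 were the other exonic peaks. unc-62 had a pooled signal of 28.8 (rank 246), with 2.35-fold in replicate 1 and 1.93-fold in replicate 2 (mean 2.14 ± 0.29, SD, n = 2). The summit was exonic in 1 of 18 transcripts, in a first exon of 2945 bp, and intronic in others. nhr-127, a nuclear hormone receptor gene, had a pooled signal of 27.4 (rank 273), with 2.21-fold in replicate 1 and 2.94-fold in replicate 2 (mean 2.58 ± 0.51, SD, n = 2), and its summit lay in a 5′ UTR exon 516 bp from a start. C05D11.8 had a pooled signal of 24.6 (rank 349), with 2.60-fold in replicate 1 and 2.72-fold in replicate 2 (mean 2.66 ± 0.084, SD, n = 2). Its summit, in soft-masked sequence of the last exon, lay 1758 bp upstream of the start of atgl-1, which encodes a triglyceride lipase, and that start was the nearest.

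All 10 exonic peaks had a summit within 100 bp in both replicates' lists. The thresholded list was itself derived from the pooled and both replicates' lists, so this match is not independent support. In 5 of the 10 peaks the fold was higher in replicate 1 and in 5 it was higher in replicate 2. Among the top ranks of a replicate's own list, as many as there are peaks, stood 5 of the 10 in replicate 1 and 7 in replicate 2, and 3 stood there in both. The median pooled signal of the 10 was 31.3, against 32.4 for the 244 other autosomal peaks. The nearest start belonged to another gene for 3 of the 10 peaks and for 1478 of the 6301 exonic regions, or 23.5%.

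The first exonic region outside the thresholded list lay just below its last member. C05D11.8 was the last exonic peak at 24.6, and nrfl-1 followed outside the list at 24.4 (rank 364). nrfl-1 had 3.24-fold in replicate 1 and 1.33-fold in replicate 2. Its summit lay 233 bp from the nearest start, just past the 200 bp edge of the promoter window. The next 10 exonic regions ran from rank 364 to rank 618, and most were uneven between the replicates. prp-39, whose product takes part in splicing, was over 2-fold in both, with 2.19-fold in replicate 1 and 2.96-fold in replicate 2. So was ptr-12, a patched-related gene, with 2.09-fold in replicate 1 and 2.45-fold in replicate 2. In all, 9 exonic regions were over 2-fold in both replicates, and 7 of these were peaks.

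Several of these 10 were high in only 1 replicate. fkb-4, an FK506-binding protein gene, had 1.35-fold in replicate 1 and 2.74-fold in replicate 2. dmd-7, a DM-domain gene, had 1.69-fold in replicate 1 and 2.82-fold in replicate 2. rsbp-1 had 3.44-fold in replicate 1 and 1.36-fold in replicate 2. tir-1, which encodes a TIR-domain protein, had 2.12-fold in replicate 1 and 1.25-fold in replicate 2. amph-1, the amphiphysin gene, was closer to even, with 2.43-fold in replicate 1 and 1.90-fold in replicate 2. A second region in cutl-27, in its 3′ UTR, had 1.03-fold in replicate 1 and 3.02-fold in replicate 2, and lay 1980 bp from the nearest start. mca-1, a plasma membrane calcium pump gene, was at 2.86-fold in the pooled list, had no summit within 100 bp in replicate 1 and was at 0.944-fold in replicate 2.

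**Figure D2:**
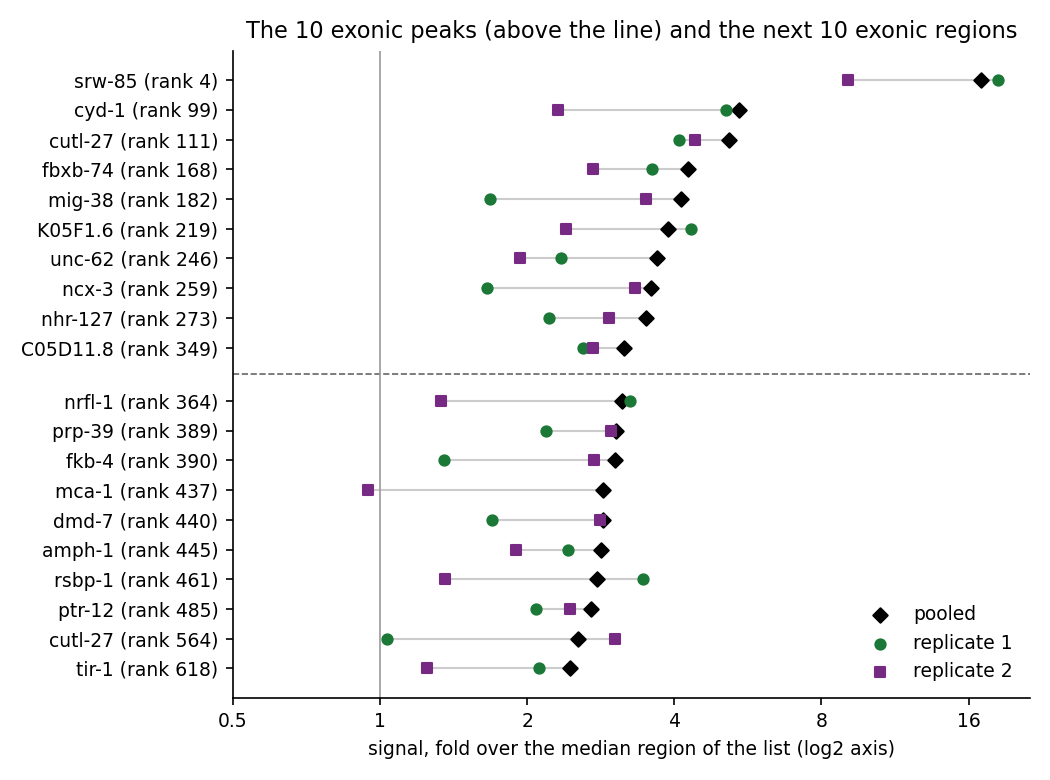
Signal of the 10 exonic peaks (above the dashed line) and the next 10 exonic regions (below it) as a ratio to each list's median region, on a log2 axis, in the pooled list and in each replicate. srw-85 lies far to the right of the others in all 3 lists, mig-38 and ncx-3 are under 2-fold in replicate 1, and mca-1 has no replicate 1 value.

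Lower in the lists the replicates shared few exonic summits. Of the 10 peaks all were matched in both replicates, of the 38 exonic regions in ranks 352 to 1000 it was 68.4%, of the 779 in ranks 1001 to 5000 it was 37.7%, and of the 5474 below them it was 6.43%. The pooled list was made from both replicates, and the peaks were chosen with their lists. The fall with pooled rank is therefore not independent of the ranking. Over all 6301, 682 were matched in both (10.8%), against 15.1% of promoter, 11.7% of intronic and 14.01% of intergenic regions. A match in neither replicate was seen for 23.3% of exonic and 23.3% of other autosomal regions. Across the 682 matched exonic regions the folds of the replicates had a Spearman rho of 0.101 and a Pearson r of 0.266 on the log2 scale. For matched promoter regions rho was 0.329, for intronic 0.260 and for intergenic 0.468. These correlations are across regions, which share 2 libraries and are not independent, and the classes differ in how many strong regions they hold.

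In the top ranks of each replicate's own list, exonic summits numbered 9 in replicate 1 and 29 in replicate 2. In replicate 1, all 9 had a summit of the pooled list within 100 bp, 5 of them a peak, and the median pooled rank was 219. In replicate 2, 27 of the 29 had one, 7 of them a peak, and the median pooled rank was 1142. Coding summits were 4 of the 9 and 21 of the 29, or 44.4% in replicate 1 and 72.4% in replicate 2. The motif WGATAR was at 55.6% of the 9 and at 34.5% of the 29. Among the 29 with no summit within 100 bp in replicate 1 were unc-43, at 2.93-fold, and pat-3, which encodes a beta integrin, at 2.90-fold.

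Within exons, the share of summits in each part was within a few percentage points of its share of bases, and several small differences were wider than the counting intervals. Summits lay in coding sequence for 89.2% of the exonic regions (88.4% to 89.9%), in a 3′ UTR for 9.19% (8.50% to 9.93%), in a 5′ UTR for 1.38% (1.12% to 1.70%) and in a noncoding transcript of a protein-coding gene for 0.270%. Autosomal exonic bases outside promoter windows divided as 88.1%, 10.3%, 1.26% and 0.309% over the same parts. Internal exons held 74.0% of the summits (72.9% to 75.1%) against 73.5% of the bases, last exons 21.8% (20.8% to 22.8%) against 22.8%, first exons 3.84% (3.39% to 4.34%) against 3.31% and single-exon transcripts 0.365% against 0.462%. Along the coding sequence, cut into 5 equal stretches, the one nearest its start held 11.9% of coding summits and 12.1% of coding bases, and the one nearest its end 20.6% and 20.3%. The promoter window removes most bases near starts, so first exons and the earliest stretch are small in both counts. By exon length, exons of up to 100 bp held 4.21% of summits (3.74% to 4.73%) and 4.82% of bases, exons up to 200 bp 19.7% (18.7% to 20.7%) and 21.03%, exons up to 400 bp 33.5% (32.3% to 34.6%) and 31.8%, exons up to 1000 bp 32.1% (30.9% to 33.2%) and 31.5%, and longer exons 10.6% (9.83% to 11.3%) and 10.8%.

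The peaks were spread differently over these parts. Of the 10, 4 were coding (40.0%, 95% Wilson interval 16.8% to 68.7%), 3 lay in a 5′ UTR, 2 in a 3′ UTR and 1 in a noncoding transcript. In ranks 352 to 1000, 31 of 38 were coding (81.6%, 66.6% to 90.8%), 5 lay in a 5′ UTR and 2 in a 3′ UTR. In ranks 1001 to 5000 the coding share was 88.6%, and below them it was 89.4%. These ranks are of the pooled list, and the coding share at the top depended on the list. In the top ranks of each replicate's own list, coding summits were 44.4% of 9 in replicate 1 and 72.4% of 29 in replicate 2. Of the 87 regions with a 5′ UTR summit, 8 were among the first 1000 regions (9.20%), against 0.623% of coding and 0.691% of 3′ UTR summits. An exon over 1000 bp held 5 of the 10 peaks. A summit that was intronic in another transcript of the gene was seen for 2 of the 10 peaks (K05F1.6 and unc-62), or 20%, and for 3.41% of all exonic regions.

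The 8 with a 5′ UTR summit in the first 1000 lay in 7 genes, and in 6 of the 8 the exon belonged to 1 transcript of the gene, which for dpy-20 is its only one. A first-exon summit outside the promoter window must lie over 200 bp past the start, so only long first exons can hold one, and the lengths are given as a description. The exon was 2945 bp in unc-62, 2360 bp in dmd-7, 2743 bp in rsbp-1, 2872 bp in tir-1 and 1254 bp in dpy-20. dpy-20, a gene needed for normal body shape, was at rank 626 with 3.39-fold in replicate 1 and no match in replicate 2. A second unc-62 region held rank 739, with 1.81-fold in replicate 1 and 1.10-fold in replicate 2. How far these exons are used in L2 larvae cannot be read from ChIP-seq.

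**Figure D3:**
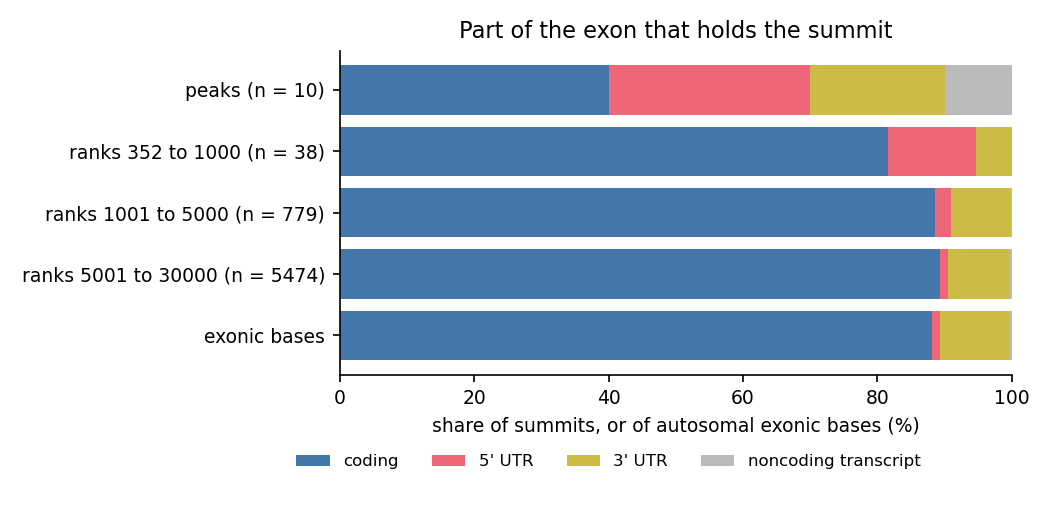
Part of the transcript that holds the summit (coding, 5′ UTR, 3′ UTR, noncoding transcript), as percent of the exonic regions in each group of ranks and, in the lowest bar, of autosomal exonic bases outside promoter windows. Coding summits are 40.0% of the 10 peaks, 81.6% of ranks 352 to 1000 and 89.4% below rank 5000, beside 88.1% of bases.

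The GATA motif was no more frequent at exonic summits than in exonic sequence as a whole. WGATAR, searched on both strands in the 101 bp around the summit, was present at 18.9% of exonic regions (17.97% to 19.9%), against 21.02% of the other autosomal regions and 20.5% of all autosomal regions. Of positions spaced every 100 bp through autosomal exons outside promoter windows, 19.7% held it. The exact word AGATAA, with its reverse complement, was at 4.86% of exonic regions, 6.69% of all autosomal regions and 4.92% of exonic positions. Median GC content around the summit was 41.6% in exons, 37.6% in promoters, 34.7% in introns and 35.6% between genes, and it was 39.6% at the exonic positions. What part base composition has in these shares was not tested.

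Among peaks the motif was present at a higher share, which depended on the window and the list. WGATAR was present at 6 of the 10 exonic peaks (60%, 31.3% to 83.2%), 45.5% of 110 promoter peaks, 53.2% of 47 intronic peaks and 54.02% of 87 intergenic peaks. Within 25 bp of the summit it was at 20% of the 10, against 9.65% of all exonic regions, and without replicate 1, in the top ranks of replicate 2's list, it was at 34.5%. AGATAA was at 4 of the 10 (40.0%), against 31.1% of the other autosomal peaks. In ranks 352 to 1000 the share with WGATAR was 18.4% of exonic regions (9.22% to 33.4%) and 29.6% of other autosomal regions, and in ranks 1001 to 2000 it was 25% (19.1% to 32.1%) of exonic and 24.5% of other autosomal regions. From rank 2001 on, exonic regions held it at 18.3% to 19.3% and other autosomal regions at 19.8% to 21.6%. The interval of the 10 peaks spans the share of every other class of peak.

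**Figure D4:**
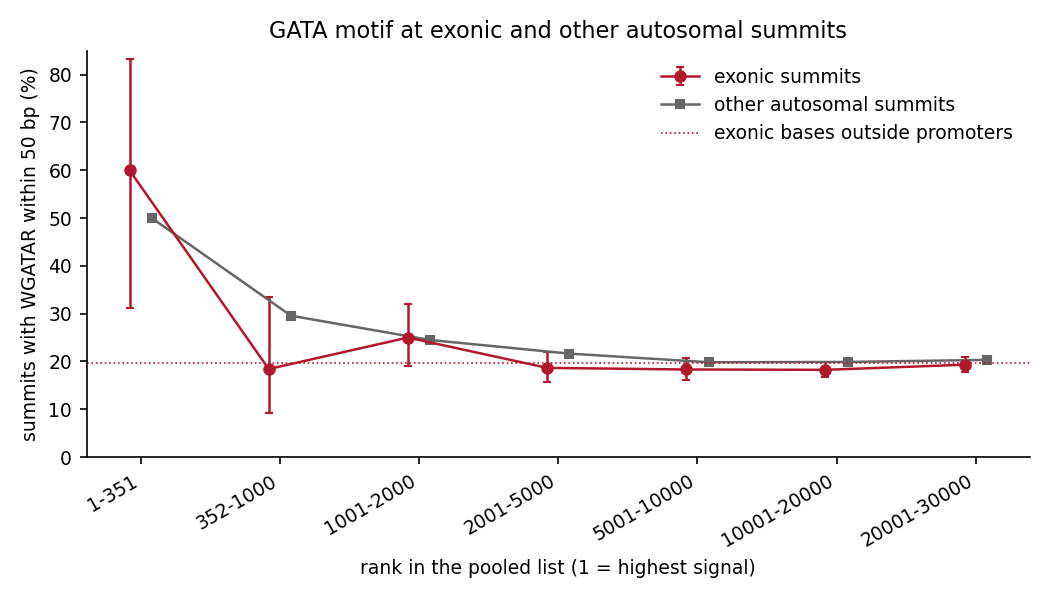
Share of summits with WGATAR within 50 bp (y axis, percent) by rank in the pooled list (x axis), for exonic summits with 95% Wilson intervals as bars and for the other autosomal summits, with the share at exonic positions outside promoter windows (19.7%) as a dotted line. The exonic share is 60% among the peaks and lies between 18.3% and 25% in all later ranks.

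Exonic regions were spread over 4686 host genes, which is 27.2% of 17242 autosomal protein-coding genes, and over 3186 or 5544 with a wider or a narrower promoter window. A single exonic region lay in 3578 of them, 1108 held several and 55 held at least 5. Long genes held the most. vab-10, a spectraplakin of epidermal attachments, held 11, T24B8.7 held 9, unc-89, a giant protein of muscle, held 9, unc-44, an ankyrin, held 8, and din-1 held 8, as did dig-1, F55F10.1 and eel-1. None of these 8 genes hosted a peak, and the best rank in vab-10 was 5974. Over all exonic regions the share of peaks was 0.159%, so few or none would be counted in these genes. Per kb of exon outside promoter windows, the number was 0.479 in vab-10, 0.361 in unc-89, 0.388 in unc-44 and 1.01 in T24B8.7. It was 0.943 in din-1, 0.203 in dig-1, 0.625 in F55F10.1 and 0.623 in eel-1. Over all genes it was 34.4 per 100 kb, and of these 8 only dig-1 was below that density.

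By gene list, the density of exonic regions was highest in genes of translation and of the intestine. Translation factor genes had 76.4 exonic regions per 100 kb of exon outside promoter windows (24 regions in 16 of 37 genes). Intestinal and yolk genes had 72.3 (29 in 24 of 51) and ribosomal protein genes 68.8 (9 in 9 of 79), against 34.4 over all autosomal genes. The genes with an exonic region were 43.2%, 47.1% and 11.4% of these lists, against 27.2% of all autosomal genes. By that share the ribosomal list was below all genes, and its density rests on 13.1 kb of such exon. That 27.2% is also the comparison for the gene counts of the other lists below. The strongest regions were at 1.55-fold in eif-2Bbeta, 1.76-fold in cpr-9, a cathepsin B-like protease gene, and 1.52-fold in rpl-6. No region of these 3 lists was a peak or among the first 1000, and over all exonic regions these shares were 0.159% and 0.762%, so that few or none would be counted in lists of this size. rpl-6 and rpl-3 were at 1.78-fold and 1.91-fold in replicate 1 and had no match in replicate 2. Their summits lay 436 bp and 230 bp from the nearest start, the latter just past the 200 bp edge of the promoter window.

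Genes of the epidermal apical matrix, junctions and attachments had 48.4 exonic regions per 100 kb, in 33 of 50 genes, and 1 of the 72 was a peak, the one in cutl-27. mup-4, which encodes an apical attachment protein of the epidermis, followed with 1.95-fold in the pooled list, 1.87-fold in replicate 1 and 0.747-fold in replicate 2. Genes for GATA and other epidermal transcription factors had 46.4 per 100 kb, 11 regions in 7 of 19 genes. They were led by elt-1 itself at 2.15-fold and by blmp-1 at 1.57-fold. The leading elt-1 region was at 0.881-fold in replicate 1 and had no match in replicate 2. Several of the 11 lay in elt-1, whose sequence the tagged transgene also carries. Cuticle collagen genes had 30.9 per 100 kb, 36 regions in 33 of 146 genes, led by sqt-3 at 1.72-fold, and the motif was at 2.78% of the 36, where the median GC content was 55.9%. Patched-related and hedgehog-related genes had 36.1 per 100 kb, led by ptr-12 and by ptr-20 at 1.63-fold.

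Nuclear hormone receptor genes had 36.1 exonic regions per 100 kb, 93 in 79 of 247 genes, led by the peak in nhr-127 and by nhr-168 at 1.84-fold. Chemoreceptor genes had 29.6 per 100 kb, 290 in 262 of 1331 genes, led by the peak in srw-85 and by srh-125 at 2.08-fold. F-box and MATH-BTB genes had 21.7 per 100 kb, led by the peak in fbxb-74 and by math-28 at 1.80-fold. Histone genes, 76 in number, had 5.16 kb of exon outside promoter windows and no exonic region. Genes of muscle structure had 29.8 per 100 kb, led by unc-15, the paramyosin gene, at 2.09-fold, and by pat-3 at 1.92-fold. In the remaining 8 lists the density ran from 29.6 in cytochrome P450 and UDP-glucuronosyltransferase genes to 44.4 in heterochronic genes, and none held a peak. Peaks were 0.159% of all exonic regions, so few or none would be counted in lists of this size. Members of these lists are few, and a density of regions near the middle of the ranking describes where regions were listed rather than strong signal.

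**Figure D5:**
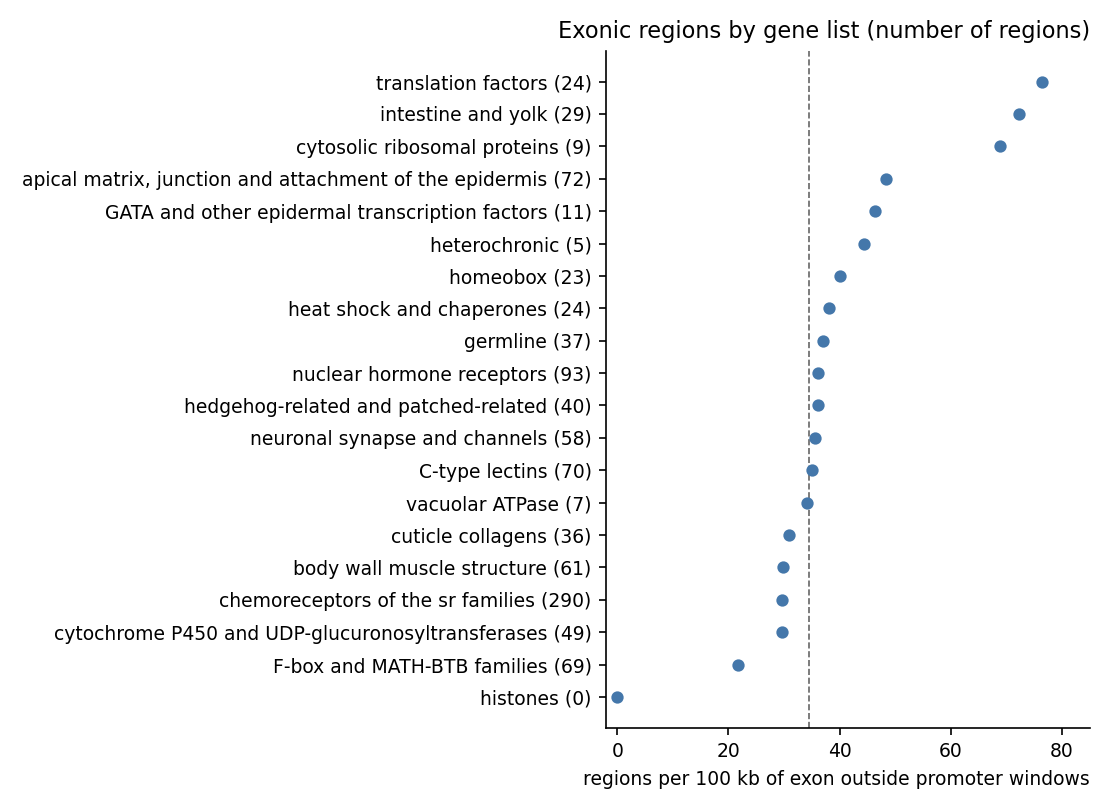
Exonic regions per 100 kb of exon outside promoter windows (x axis) for each of 20 gene lists, with the number of regions in brackets and all autosomal protein-coding genes (34.4) as the dashed line. Translation factor, intestine and yolk, and ribosomal protein genes lie at 68.8 to 76.4. Histone genes, with only 5.16 kb of such exon, lie at 0.

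Around the elt-1 gene, exonic signal was higher in the pooled list, and most of these regions were not high in the replicates. Within 20000 bp of it lay 7 exonic regions, in elt-1, mca-1 and F27C8.2, with a median of 1.38-fold (0.809 to 2.86), against 0.989-fold for all exonic regions. Of the 7, 2 were in the first 1000 regions, and 0.762% of all exonic regions were. The 3 in elt-1 were at 2.15-fold, 1.99-fold and 1.38-fold in the pooled list. The first of them held rank 20221 in replicate 1 and had no match in replicate 2, the next held ranks 3461 in replicate 1 and 401 in replicate 2, and the third had no match in either. The strongest of the 7, in mca-1, was at 2.86-fold in the pooled list, had no match in replicate 1 and was at 0.944-fold in replicate 2, and the other mca-1 region had no match in either. None of the 7 held WGATAR within 50 bp. The tagged transgene carries elt-1 sequence, and its part in this signal was not tested.

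By chromosome, the exonic peaks were 4 on IV, 3 on V, 2 on II, 1 on III and 0 on I, where all autosomal peaks numbered 57, 54, 60, 35 and 48. Exonic regions per 100 kb of exon ran from 30.4 on V to 37.0 on III. The median exonic summit lay 1397 bp from the nearest transcript start, and 393 (6.24%) lay over 5000 bp from one. A tRNA, snRNA, snoRNA or rRNA gene lay within 200 bp of 24 exonic summits (0.381%). Soft-masked sequence held 9.0% of exonic summits, against 25.9% of promoter, 42.1% of intronic and 29.5% of intergenic summits.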

How the data were processed

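ChIP-seq of ELT-1-eGFP gave, per the file listing deposited with the samples, a ranked list of 30000 regions for each of 2 replicates and for the pooled replicates, and a thresholded list of 351 regions, made with a control and the irreproducible discovery rate. The deposited value used is each region's signal, in a scale set by the authors. Its normalization, the aligner, the peak caller and the threshold are, like read depth, not given in the sources used here. Lists on ce10 were not used. Places came from Ensembl release 115 on WBcel235 (ce11), with Python 3.11.15, numpy 2.4.6, pandas 2.3.3 and scipy 1.17.1. Only the placing of summits by class, the motif search and the matching of summits were tested, on made-up positions and sequences with known answers.

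A summit was placed in a promoter window, else an exon, an intron or between genes. Signal was compared within a list, as rank or fold over its median region, and a replicate's value is its nearest summit within 100 bp. Exon position came from the host's transcript that holds the summit in an exon and has the longest coding sequence, since the annotation marks no canonical transcript. Exonic bases were sampled every 100 bp. The thresholded list was the first 351 regions of the pooled list.

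Members and gene lists were chosen with earlier results of these data known. Genes named are the hosts of the exonic peaks, of the 10 highest other exonic regions, of the most regions (5 genes), and up to 2 per list by pooled signal, with those whose replicate ranks differ most. The unc-43 and dpy-20 regions, the second unc-62 region, the hosts tied for the most regions and the neighbours of elt-1 were added after their values were seen. The labels do not say whether the replicates were separate cultures, so SDs over 2 may be technical in part. Alternatives were other promoter windows, transcripts, motifs, window widths and match distances, and each replicate's own list.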

Additional observations from a re-analysis of the deposited data

How the results depend on the processing

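Over 12 results, 79 alternatives were computed, and 52 stayed within the limit set for that result: 1.5 times for a count, the 95% Wilson interval for shares of peaks and of matches, and 1 SD of the replicates for other values. The exonic share of the top ranks was higher in replicate 2's own list than in that of replicate 1 or the pooled list. Without a replicate, using as many top ranks of the other's own list as there are peaks, the exonic peaks numbered 9 to 29, or 0.143% to 0.478% of exonic regions and 2.56% to 8.26% of all regions in those ranks, against 10, 0.159% and 2.85% in the pooled list; the value without replicate 1 is the high one each time. Without a replicate, WGATAR was at 19.1% to 19.3%, at 34.5% to 55.6% of the peaks, and first exons held 3.60% to 3.80%. The geometric mean signal was 1.03-fold. Of the first 5000 regions, 16.5% were exonic. WGATAR was at 35.3% within 100 bp and 9.65% within 25 bp, AGATAA was at 4.86%, GATA at 51.3% and HGATAR (H is A, C or T) at 24.4%. Of the peaks, 20% held WGATAR within 25 bp and 90% held GATA. With promoter windows of 2000 and 500 bp, and of 500 and 100 bp, exonic regions numbered 4311 and 7494 and host genes 3186 and 5544, WGATAR was at 18.7% and 18.8%, coding summits were 88.5% and 88.4%, last exons 22.6% and 22.5%, and first exons 0.858% and 7.33%. By the longest coding transcript of the host, last exons held 20.6% and first exons 3.22%. Matches in both replicates were 18.3% within 200 bp and 5.95% within 50 bp. The use of a replicate's top ranks for peak counts, and the windows for first exons, were chosen after seeing the data. No paired analysis was possible because there is 1 group. With unknown depth, 2 replicates and 10 exonic peaks, shares among the peaks have wide intervals, and a region absent from a list of 30000 may only have ranked below it.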
